A study of Mus musculus with 42 samples.

Results

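Valine and isoleucine tRNAs were taken as every tRNA-seq reference whose name holds tRNA-Val or tRNA-Ile. This gave 20 of 220 tRNA references, 13 for valine and 7 for isoleucine. They read 5 of 51 anticodons (initiator methionine counted apart): Val-AAC with 6 references, Val-CAC with 6, Val-TAC with 1, Ile-AAT with 4 and Ile-TAT with 3. Anticodons are written in DNA letters, and a final number tells the references of 1 anticodon apart. Of the 20 references, 15 had a mean of at least 10 reads per 1000000 reads of the library (RPM) and were tested, and 5 did not. In the table of tRNA methylation, 4 of 44 isoacceptors (tRNAs that share an anticodon) belong to these amino acids, and Val-TAC is not analysed there.

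The series holds 42 samples of mouse CD4 T cells from the spleen. tRNA-seq followed wild type (WT) cells at 0, 6, 18 and 48 h of activation, with 2 libraries per time. m1A-seq, which reads a methyl mark on tRNA, compared WT cells with a conditional knockout (cKO) of Trmt61a at 6 h. RNA-seq compared the same genotypes at 0, 3, 6 and 48 h.

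Naive CD4 T cells were purified with a kit from mice given as 8 weeks old and were activated on plate-bound anti-CD3 (5 µg/ml) with anti-CD28 (2 µg/ml). The strain is given as C57BL/6 for RNA-seq and m1A-seq and is not named for tRNA-seq. The Cre driver of the cKO is not named for these samples; for the RiboTag mice of the series, the design names Cd4Cre with floxed Trmt61a. The tRNA-seq libraries were made from RNA under 200 nt that was stripped of its amino acids. Their titles name AlkB, an enzyme that takes m1A off the RNA so that reverse transcriptase can pass. For m1A-seq the titles list, per genotype, 2 libraries that name AlkB and 2 that do not. The labels do not say whether the 2 libraries of a time came from separate animals, so p-values measure only the spread between these libraries, which may be technical. The tRNA tables hold no mRNA, so the label CD4 T cell could not be checked in them against marker genes.

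A tRNA carries its amino acid to the ribosome and reads codons through its anticodon. In the AAC and AAT anticodons the first base, adenosine 34, is changed to inosine by the ADAT2-ADAT3 deaminase, so that 1 tRNA reads several codons of its amino acid. The TRMT6-TRMT61A enzyme adds a methyl group to adenosine 58 in the T loop (m1A58), where TRMT61A is the catalytic subunit; the mark supports the fold and stability of the tRNA. Valine and isoleucine are branched-chain amino acids that T cells import through the SLC7A5-SLC3A2 transporter. RNA polymerase III makes all nuclear tRNAs, and MAF1 represses it.

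In RefSeq (GRCm38.p6) 38 of 430 tRNA loci carry these anticodons by their symbols. These are 15 for Ile-AAT, 11 for Val-CAC, 8 for Val-AAC, 3 for Val-TAC and 1 for Ile-TAT. They lie on 12 chromosomes, with 18 of them on chromosome 13 between 21855320 and 23446214, and 10 lie inside the span of another gene. The numbered references could not be matched to these loci, and tRNA-seq names 3 references for Ile-TAT against 1 locus by symbol. The loci n-TIaat15, n-TIaat16 and n-TIaat17 span 96, 95 and 93 bases, near the 94 of n-TItat14. Their anticodons were not checked by sequence. The only locus with an Ile-TAT symbol, n-TItat14, lies inside the RefSeq entry Mir1983 (chr13:21896918-21897049, minus strand). The sequence of Mir1983 is shown because it displays both the anticodon and the site of m1A58. The tRNA span is bases 19 to 112 of the entry and was placed by coordinates alone, on the strand of Mir1983. Capitals mark the anticodon UAU (bases 35 to 37 of the tRNA span) and the T-loop bases UUCGA (bases 75 to 79), whose last A is position 58 in the usual tRNA numbering.
Mir1983: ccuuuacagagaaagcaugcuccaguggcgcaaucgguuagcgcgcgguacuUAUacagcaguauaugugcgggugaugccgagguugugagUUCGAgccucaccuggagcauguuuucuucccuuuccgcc

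The 8 libraries held between 67261117 and 92701839 reads. Reads on tRNA references took 66.7% of both 0 h libraries, 87.1% and 83.0% at 6 h, 89.5% and 91.5% at 18 h, and 90.2% and 87.2% at 48 h. A level as a share of the whole library (RPM) and a level as a share of the tRNA reads therefore answer different questions, and both are given. In bulk RNA, a change in cell makeup and a change in RNA per cell cannot be told apart. The comparisons with 0 h at 6, 18 and 48 h all use the same 2 libraries of 0 h.

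Valine and isoleucine tRNAs rose against the whole library at every later time (edgeR). With the tRNA reads as library size, Ile-AAT at 48 h was called. Val-TAC at 18 h was called only with TMM factors taken over the anticodons, and not with those taken over the references (edgeR). Together the valine and isoleucine tRNAs made up 36048 ± 2619 RPM at 0 h. At 6, 18 and 48 h they made up 48648 ± 597, 50319.5 ± 2284 and 52848 ± 868 RPM (SD, n = 2). As a share of the tRNA reads the same sum at 0, 6, 18 and 48 h was 5.41% ± 0.389, 5.72% ± 0.127, 5.56% ± 0.165 and 5.96% ± 0.245 (SD, n = 2). The valine tRNAs had more reads than the isoleucine tRNAs in every library, by 1.43 ± 0.0269 times at 0 h and 1.33 ± 0.0315 times at 48 h (SD, n = 2).

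Levels were not divided by length; 34 of the 38 RefSeq loci span 72 to 74 bases and the other 4 span 93 to 96. At 0 h the order by RPM was Val-CAC and Ile-AAT, then Val-TAC and Val-AAC, then Ile-TAT. Val-CAC (12834 ± 912) lay above Ile-AAT (12041 ± 732) in both libraries, though their ranges overlapped (SD, n = 2). Val-TAC (4221 ± 490) and Val-AAC (4136 ± 302) differed by less than the SD of either and changed order between the 2 libraries, and Ile-TAT (2816 ± 183) stood below all others (SD, n = 2). By 48 h Ile-AAT lay above Val-CAC, at 18890 ± 171 against 18233 ± 305 RPM (SD, n = 2), and no test of that difference was run.

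Ile-AAT, whose inosine-bearing anticodon reads several isoleucine codons, stood at 11524 and 12559 RPM at 0 h, 16409.5 and 16771 at 6 h, 17789 and 17443 at 18 h, and 18769 and 19011 at 48 h. No later library overlapped with 0 h. The log2 fold change was 0.46 ± 0.0758 (SE) at 6 h, 0.55 ± 0.0758 at 18 h and 0.65 ± 0.0759 at 48 h, with adjusted p of 3.75e-06, 5.14e-08 and 1.29e-09 (edgeR's quasi-likelihood test, Benjamini-Hochberg over 49 anticodons). On the tRNA reads, Ile-AAT took 1.73% and 1.88% at 0 h and 2.08% and 2.18% at 48 h, and its log2 change at 48 h was 0.24 ± 0.0701 (SE, adjusted p = 0.0148, edgeR).

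Ile-TAT, the minor isoleucine tRNA, stood at 2686 and 2946 RPM at 0 h, 3741 and 3843 at 6 h, 3599 and 4039 at 18 h, and 3882 and 3733 at 48 h. Its level was thus higher in every later library, with hardly any difference among the 3 later times. The log2 fold changes were 0.43, 0.44 and 0.44 (SE 0.103 each), with adjusted p of 3.69e-04, 2.09e-04 and 2.55e-04 by edgeR. On the tRNA reads it took 0.422% ± 0.0272 at 0 h and 0.429% ± 0.0013 at 48 h (SD, n = 2), with a log2 change of 0.02 ± 0.0881 (SE).

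The ratio of Ile-AAT to Ile-TAT reads was 4.29 and 4.26 at 0 h, 4.39 and 4.36 at 6 h, 4.94 and 4.32 at 18 h, and 4.84 and 5.09 at 48 h. All later libraries were above both 0 h libraries. With 2 against 2 libraries an exact permutation test cannot go below 0.333, so no such test is given for these ratios.

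Val-CAC, the most abundant valine tRNA, stood at 12189 and 13479 RPM at 0 h, 17460.3 and 16862 at 6 h, 16169 and 17864 at 18 h, and 18018 and 18449 at 48 h. Its log2 fold changes were 0.42 ± 0.0781, 0.41 ± 0.0781 and 0.51 ± 0.0782 (SE), with adjusted p of 1.39e-05, 1.18e-05 and 3.50e-07 by edgeR. On the tRNA reads it took 1.83% and 2.02% at 0 h and 2.00% and 2.12% at 48 h, and these groups overlapped.

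Val-AAC, the valine tRNA with inosine, stood at 3922 and 4349 RPM at 0 h, 5372 and 5160.4 at 6 h, 4790.0 and 5365 at 18 h, and 5598 and 5991 at 48 h. It rose by 0.35 ± 0.0966, 0.30 ± 0.0966 and 0.49 ± 0.0967 on the log2 scale (SE), with adjusted p of 0.00133, 0.00511 and 2.46e-05 by edgeR. The call at 18 h rested on 2 libraries: without library 1 of 0 h its log2 fold change was 0.22 (adjusted p = 0.079), and without library 2 of 18 h it was 0.21 (adjusted p = 0.062). On the tRNA reads Val-AAC did not pass the test against 0 h at any time, and its log2 change was -0.14 at 18 h. From 18 to 48 h it changed there by 0.22 and was not called (adjusted p = 0.0811). It was called higher when TMM factors taken over the anticodons were added (0.22, adjusted p = 0.0322, edgeR).

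Val-TAC, which a single reference represents, stood at 3875 and 4568 RPM at 0 h, 6087 and 5589 at 6 h, 6357 and 7223 at 18 h, and 5967 and 6278 at 48 h. It reached its highest level at 18 h, where the log2 fold change was 0.69 ± 0.0977 (SE, adjusted p = 8.59e-08), against 0.47 ± 0.0975 at 6 h and 0.54 ± 0.0976 at 48 h (adjusted p of 6.88e-05 and 6.40e-06, edgeR). From 6 to 18 h its change of 0.22 ± 0.0973 did not pass (adjusted p = 0.0893), nor did -0.15 ± 0.0973 from 18 to 48 h (adjusted p = 0.284, edgeR). On the tRNA reads its change at 18 h was 0.24 ± 0.0919 (SE, adjusted p = 0.0644). It passed when TMM factors taken over the anticodons were added (0.25, adjusted p = 0.0356, edgeR). With TMM factors taken over the references, its single reference Val-TAC-1, which holds the same reads, was not called (0.12, adjusted p = 0.248, edgeR).

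Within valine, Val-TAC made up 19.4% and 20.4% of the reads at 0 h, 21.0% and 20.2% at 6 h, 23.3% and 23.7% at 18 h, and 20.2% and 20.4% at 48 h. Both 18 h libraries lay above all 6 others. Val-AAC was lowest at 18 h, with 17.5% and 17.6% of the valine reads against 19.6% and 19.4% at 0 h, and Val-CAC took 59.2% and 58.7% there against 61.0% and 60.2%. The ratio of Val-TAC to Val-AAC reads was 1.02 ± 0.0441 at 0 h, 1.34 ± 0.0136 at 18 h and 1.06 ± 0.0127 at 48 h (SD, n = 2).

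By count, all 5 anticodons were called higher than at 0 h on the library total at 6, 18 and 48 h, where 85.7%, 85.7% and 79.6% of the 49 anticodons tested were called higher. Their median log2 fold change was 0.43, 0.44 and 0.51, beside medians of 0.38, 0.45 and 0.41 over all 49. None of the 5 was called between 6 and 18 h or between 18 and 48 h (edgeR), where 26.5% of the anticodons were called in each case; at an unadjusted p under 0.05 the counts were 1 and 0. Without library 1 of 18 h, 1 was called from 6 to 18 h. DESeq2 called none from 6 to 18 h and 1 from 18 to 48 h, and its rate over all anticodons is not given.

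With the tRNA reads as library size, edgeR called 0, 0 and 1 of the 5 at 6, 18 and 48 h, the 1 being Ile-AAT. At an unadjusted p under 0.05 the counts were 0, 1 and 1. Over all anticodons 12.2%, 22.4% and 34.7% were called in either direction, and the median of all 49 lay at 0.03, 0.02 and 0.00. Adding TMM factors taken over the anticodons gave 0, 1 and 1, namely Val-TAC at 18 h and Ile-AAT at 48 h. Of all anticodons, 16.3%, 32.7% and 36.7% were then called in either direction. The fit of references takes its own TMM factors, so the fits differ in scale. There Ile-AAT-1 and Ile-AAT-3 changed by 0.10 and 0.09 at 48 h and were not called, against 0.24 for Ile-AAT in the anticodon fit (edgeR).

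**Figure D1:**
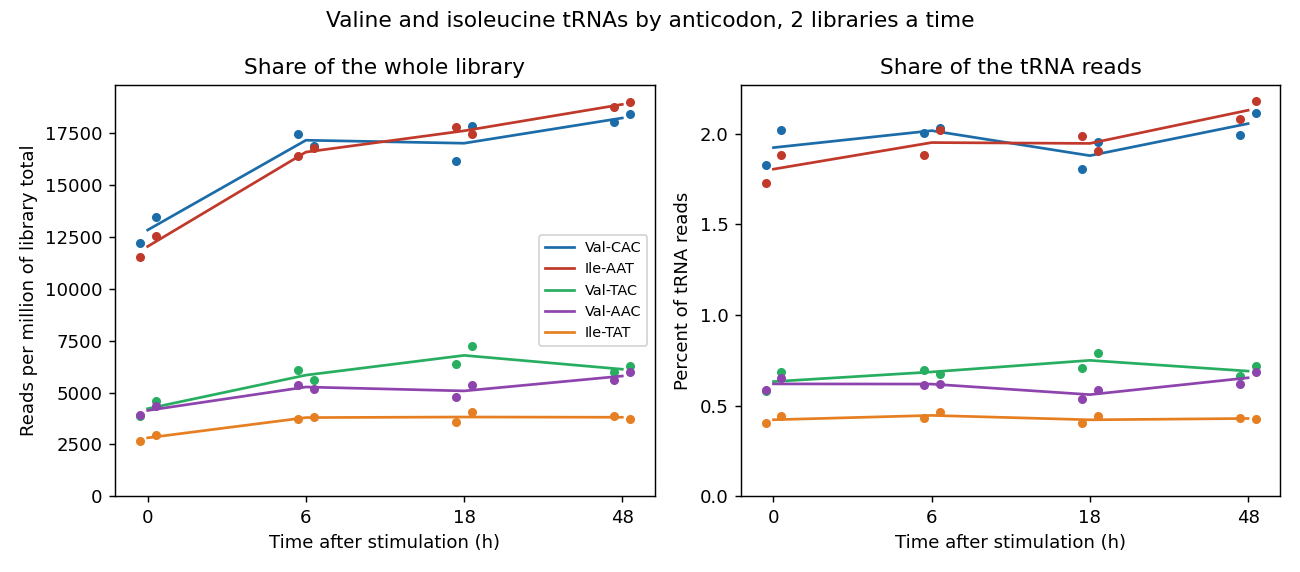
Level of the 5 valine and isoleucine anticodons in the 8 tRNA-seq libraries, as RPM of the library total (left) and as percent of the tRNA reads (right), against hours of activation (times evenly spaced). Points are libraries and lines join the means of 2 libraries; on the left every anticodon is higher at all later times than at 0 h, and on the right Val-TAC is highest at 18 h and Ile-AAT at 48 h.

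Among the 15 tested references, the fold change of the mean RPM at 48 h was highest for the minor valine references Val-CAC-3 (5.82), Val-AAC-3 (5.72), Val-AAC-4 (3.60) and Val-AAC-2 (2.45). It was 1.57 for Ile-AAT-1 and 1.41 for Val-CAC-2, the 2 most abundant. On the library total 8, 9 and 11 of the 15 were called higher than at 0 h at 6, 18 and 48 h and none lower (edgeR, Benjamini-Hochberg over 168 references). Of all 168, 57.1%, 71.4% and 70.2% were called higher and 0%, 1.19% and 2.98% lower. Their median log2 fold change at 48 h was 0.64, beside 0.62 over all 168. From 6 to 18 h 2 were called higher and from 18 to 48 h 3, beside 39.3% and 14.9% of all references. Without library 1 of 0 h or library 2 of 6 h the count at 6 h was 5, and the counts between neighbouring times ran from 1 to 5 and from 0 to 7 with 1 library left out. How reads that fit several near-identical references were assigned is not given in the sources used here, so values of single references depend on that step.

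Val-AAC-3 stood at 12.1 and 15.8 RPM at 0 h, 20.5 and 23.0 at 6 h, 44.8 and 51.3 at 18 h, and 79.6 and 80.2 at 48 h. Each time lay above the one before it with no overlap. Its mean at 48 h was 5.72 times that at 0 h, and the log2 fold change was 2.52 ± 0.237 (SE, adjusted p = 1.78e-05, edgeR), the 12th highest of 168. The values rest on 938 to 7381 reads per library.

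Val-CAC-3 followed a similar course, with 19.8 and 27.5 RPM at 0 h, 32.8 and 37.6 at 6 h, 57.0 and 71.5 at 18 h, and 135 and 141 at 48 h. Its mean rose 5.82-fold by 48 h (log2 fold change 2.54 ± 0.245 SE, adjusted p = 2.08e-05, edgeR), the 11th highest of 168. At 18 h Val-AAC-3 had already risen by 1.78 ± 0.231 and Val-CAC-3 by 1.44 ± 0.236 on the log2 scale (SE, adjusted p of 1.56e-04 and 6.26e-04, edgeR). At 6 h only Val-AAC-3 of this pair was called (0.64 ± 0.225 SE, adjusted p = 0.0395), against 0.57 ± 0.232 for Val-CAC-3 (adjusted p = 0.0645, edgeR), and the difference between them was not tested.

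Val-AAC-4 stood at 7.25 and 7.39 RPM at 0 h, 6.42 and 9.08 at 6 h, 8.54 and 12.1 at 18 h, and 23.6 and 29.0 at 48 h. It was higher at 48 h than in every earlier library, by a log2 fold change over 0 h of 1.85 ± 0.325 (SE, adjusted p = 8.51e-04, edgeR). With means of 7.32, 7.75 and 10.3 RPM at 0, 6 and 18 h, it passed the minimum of 10 RPM only through its 48 h libraries. Its calls at 48 h, here and below, are thus on a reference kept because it is high there. Val-AAC-2 stood at 62.7 and 71.8 RPM at 0 h, 84.0 and 86.5 at 6 h, 69.6 and 120 at 18 h, and 152 and 177 at 48 h. Its libraries at 18 h lay far apart, and its log2 fold change at 48 h was 1.29 ± 0.261 (SE, adjusted p = 0.00181, edgeR).

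Ile-TAT-1 and Ile-TAT-2 held nearly all Ile-TAT reads. Ile-TAT-1 stood at 773 and 760.2 RPM at 0 h, 948 and 992 at 6 h, 1069.8 and 1203 at 18 h, and 1378 and 1332 at 48 h, while Ile-TAT-2 stood at 1913 and 2185, 2793 and 2851, 2529 and 2836, and 2501 and 2398. The mean of Ile-TAT-1 was highest at 48 h and that of Ile-TAT-2 at 6 h. The steps of Ile-TAT-1 from 6 to 18 h (0.23) and from 18 to 48 h (0.25) were not called (adjusted p of 0.0668 and 0.0658, edgeR). At 48 h their log2 fold changes were 0.82 ± 0.0871 (adjusted p = 3.66e-05) and 0.26 ± 0.092 (SE, adjusted p = 0.0313, edgeR). The call on Ile-TAT-2 was lost when any of 5 libraries was left out: library 1 of 0 h (0.16, adjusted p = 0.229), library 1 or 2 of 6 h (0.26, adjusted p = 0.05 and 0.0513), and library 1 or 2 of 48 h (0.23 and 0.29, adjusted p = 0.134 and 0.0699).

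Of the abundant references, Ile-AAT-1 went from 10143.8 and 11076.5 RPM at 0 h to 16666.9 and 16666.5 at 48 h, and Val-CAC-2 from 11967 and 13206.5 to 17622 and 17973. Their log2 fold changes were 0.65 ± 0.0721 and 0.50 ± 0.0799 (SE, adjusted p of 4.93e-05 and 4.66e-04, edgeR). Val-AAC-1, at 2814 and 3127 RPM at 0 h and 4209 and 4469.6 at 48 h, rose by 0.55 ± 0.086, and Ile-AAT-3, at 1339 and 1440.1 and then 2051 and 2287, by 0.64 ± 0.0995 (SE, adjusted p of 4.32e-04 and 4.01e-04, edgeR). On the library total each of these 4 was called higher than at 0 h at 6, 18 and 48 h (edgeR). From 6 to 18 h Val-AAC-1 and Val-CAC-2 changed by -0.03 and -0.02 on the log2 scale, and neither was called.

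For 4 references no change was called at 48 h. Val-AAC-5 stood at 1025 and 1126 RPM at 0 h and at 1133 and 1235 at 48 h, a log2 fold change of 0.14 ± 0.103 (SE, adjusted p = 0.254, edgeR). Val-CAC-4 ranged from 139 to 209 RPM over the 8 libraries (0.18 ± 0.205 SE at 48 h, adjusted p = 0.463), and Ile-AAT-2 from 36.9 to 55.0 (0.42 ± 0.211 SE, adjusted p = 0.10, edgeR). Val-CAC-1 ranged from 56.0 to 141 RPM, with its lowest and its second-highest value in the 2 libraries of 18 h. Its log2 fold change at 48 h was 0.82 ± 0.339 (SE, adjusted p = 0.0556), and the adjusted p was 0.00137 without library 1 and 0.00125 without library 2 of 18 h, at the same fold change.

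On the tRNA reads, edgeR called none of the 15 references at 6 h (1 at an unadjusted p under 0.05 and 1 by DESeq2), where 11.3% and 2.98% of all references were called higher and lower. At 18 h Val-AAC-3 and Val-CAC-3 were called higher and Val-AAC-5 lower (31.5% and 10.1% of all). At 48 h 6 were called higher and 1 lower, where 42.9% and 15.5% of all references were. The 6 were Val-CAC-3 (2.13), Val-AAC-3 (2.11), Val-AAC-4 (1.44), Val-AAC-2 (0.88), Ile-TAT-1 (0.41) and Ile-AAT-1 (0.24), as log2 fold changes by edgeR. The lower one was Val-AAC-5, with -0.27 ± 0.101 (SE, adjusted p = 0.0474). Val-AAC-5 had also fallen at 18 h, by 0.51 ± 0.101 on the log2 scale (SE, adjusted p = 0.00362, edgeR). With TMM factors taken over the references added, 5 were called higher and 2 lower at 48 h (33.9% and 22.6% of all). Ile-AAT-1 was then no longer called (0.10, adjusted p = 0.432) and Ile-TAT-2 was called lower (-0.30, adjusted p = 0.00547, edgeR).

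**Figure D2:**
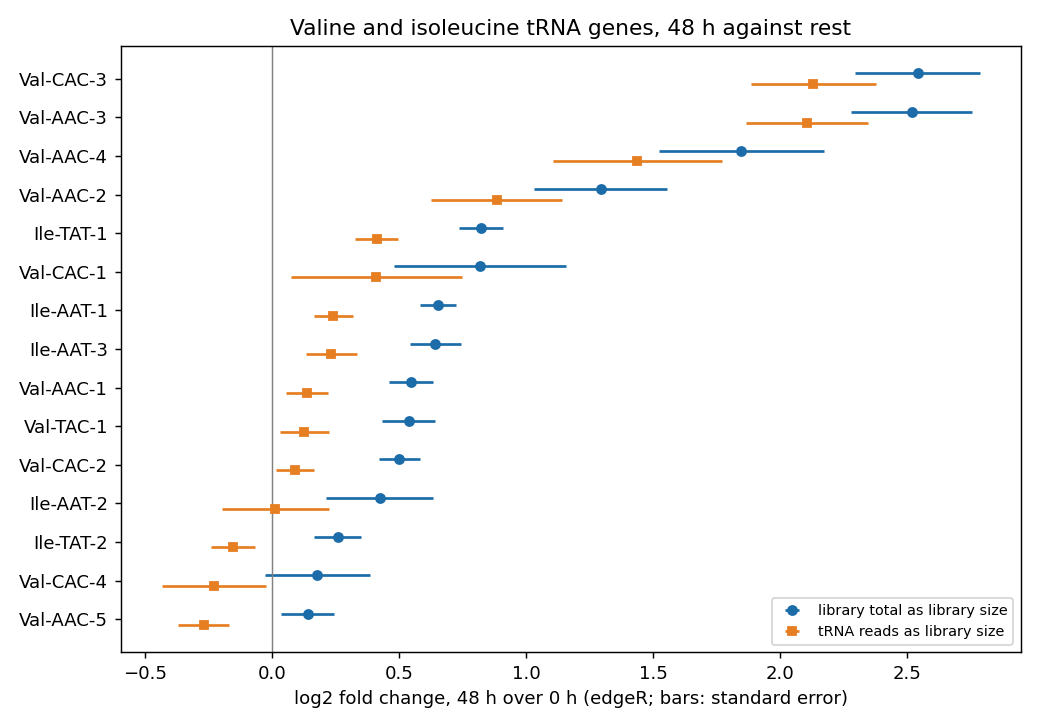
Log2 fold change at 48 h over 0 h (x axis) of the 15 tested valine and isoleucine references (y axis), with the library total (circles) or the tRNA reads (squares) as library size. Bars are standard errors derived from the edgeR fold change and F statistic. Val-CAC-3 and Val-AAC-3 stand above 2 on both scales, and Val-AAC-5, Val-CAC-4 and Ile-TAT-2 lie above 0 on the library total and below 0 on the tRNA reads.

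The share of an anticodon that each reference contributes does not depend on the library size, since both counts come from the same library. It was tested with limma on log2((reference reads + 1)/(anticodon reads + 1)) for 14 references, adjusted over 161. Shares within 1 anticodon are tied to each other: when one rises, another must fall. At 48 h against 0 h 6 of the 14 were called higher and 2 lower, where 45.3% and 23.6% of the 161 were. At 6 h Val-AAC-1 was called higher and Val-AAC-5 lower (14.3% and 4.35% of all were). At 18 h Val-AAC-1, Val-AAC-3 and Val-CAC-3 were called higher and Val-AAC-5 lower (38.5% and 17.4% of all). Between 6 and 18 h Ile-TAT-1, Val-AAC-3 and Val-CAC-3 rose while Ile-TAT-2 and Val-AAC-5 fell (37.9% and 19.3% of all). Between 18 and 48 h Ile-TAT-1, Val-AAC-3, Val-AAC-4 and Val-CAC-3 rose and Ile-TAT-2 fell (23% and 9.94% of all). These calls between neighbouring times lean on single libraries, except those on Val-AAC-3 and Val-CAC-3 from 6 to 18 h. With 1 library left out, those 2 log2 changes stayed between 1.09 and 1.31 and between 0.75 and 1.00. From 6 to 18 h Ile-TAT-1, Ile-TAT-2 and Val-AAC-5 were not called without library 1 or library 2 of 6 h (adjusted p between 0.0618 and 0.151), Ile-TAT-1 and Ile-TAT-2 not without either library of 18 h (0.0649 to 0.0955), and Ile-TAT-2 not without either of 48 h (0.0587, limma). From 18 to 48 h Val-CAC-3 alone of the 5 was called without library 1 of 18 h or library 1 of 48 h, and none of the 5 was called without library 2 of 48 h, where the adjusted p lay between 0.0516 and 0.0895 (limma). Ile-TAT-1 and Val-AAC-3 were not called without library 2 of 18 h (0.0621 and 0.0564), nor Ile-TAT-1 without library 2 of 6 h (0.05, limma).

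Within Ile-TAT, Ile-TAT-1 contributed 28.8% and 25.8% of the reads at 0 h, 25.3% and 25.8% at 6 h, 29.7% and 29.8% at 18 h, and 35.5% and 35.7% at 48 h. Its share at 48 h exceeded that in all earlier libraries, by 0.39 ± 0.0529 on the log2 scale over 0 h (SE, adjusted p = 0.00183, limma). Ile-TAT-2 made up nearly all the rest and fell from 71.2% and 74.2% to 64.4% and 64.2% (-0.18 ± 0.0233 SE, adjusted p = 0.00161, limma). The ratio of Ile-TAT-2 to Ile-TAT-1 at 0, 6, 18 and 48 h was 2.67 ± 0.283, 2.91 ± 0.0524, 2.36 ± 0.004 and 1.81 ± 0.0102 (SD, n = 2).

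Within Val-AAC, Val-AAC-5 contributed 26.1% and 25.9% of the reads at 0 h, 22.0% and 22.3% at 6 h, 19.7% and 20.7% at 18 h, and 20.2% and 20.6% at 48 h. No later library overlapped with 0 h, and the log2 change in share was -0.23 ± 0.0284 at 6 h, -0.36 ± 0.0284 at 18 h and -0.35 ± 0.0284 at 48 h (SE, adjusted p of 0.00558, 3.29e-04 and 2.68e-04, limma). The call at 6 h was lost without library 1 of 0 h (-0.23, adjusted p = 0.0551). Val-AAC-1, the main Val-AAC reference, went from 71.8% ± 0.11 at 0 h to 75.7% ± 0.376, 76.8% ± 1.29 and 74.9% ± 0.414 (SD, n = 2).

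The change in the Val-AAC-1 share was called at all 3 times (0.08, 0.10 and 0.06 on the log2 scale, SE 0.0179, adjusted p of 0.0494, 0.00795 and 0.0315, limma). The calls at 6 and 48 h did not survive leaving out either library of 0 h (at 48 h adjusted p = 0.122 and 0.108, at 6 h 0.221 and 0.169), either of 48 h (0.111 and 0.0699, at 6 h 0.0841 both) or either of 6 h (0.0722 and 0.0728, at 6 h 0.244 and 0.222). The ratio of Val-AAC-1 to Val-AAC-5 was 2.75 and 2.78 at 0 h, 3.46 and 3.39 at 6 h, 3.94 and 3.66 at 18 h, and 3.71 and 3.62 at 48 h.

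Val-AAC-2, Val-AAC-3 and Val-AAC-4, minor Val-AAC references, gained share by 48 h. Val-AAC-3 contributed 0.309% and 0.363% of the Val-AAC reads at 0 h, 0.381% and 0.445% at 6 h, 0.936% and 0.956% at 18 h, and 1.42% and 1.34% at 48 h, a log2 change of 2.04 ± 0.108 at 48 h (SE, adjusted p = 5.52e-05, limma). Val-AAC-4 went from 0.185% and 0.170% to 0.422% and 0.485% (1.35 ± 0.221 SE, adjusted p = 0.00366), and Val-AAC-2 from 1.60% and 1.65% to 2.72% and 2.96% (0.80 ± 0.204 SE, adjusted p = 0.0183, limma). Val-AAC-4 passed the RPM minimum only through its 48 h libraries. The call on Val-AAC-2 was lost without library 1 or 2 of 0 h (0.78 and 0.83, adjusted p = 0.0757 and 0.067) and without library 1 or 2 of 48 h (0.86 and 0.74, adjusted p = 0.0565 and 0.0822).

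Within Val-CAC, Val-CAC-3 contributed 0.162% and 0.204% of the reads at 0 h, 0.188% and 0.223% at 6 h, 0.352% and 0.400% at 18 h, and 0.748% and 0.762% at 48 h. The log2 change at 48 h was 2.05 ± 0.146 (SE, adjusted p = 1.75e-04, limma). Val-CAC-2 held between 97.4% and 98.4% of the Val-CAC reads in every library, so that the rise of Val-CAC-3 hardly altered the makeup of this anticodon. In the same way Ile-AAT-1 held between 87.2% and 89.5% and Ile-AAT-3 between 10.2% and 12.4% of the Ile-AAT reads, and no share within Ile-AAT was called at any time.

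**Figure D3:**
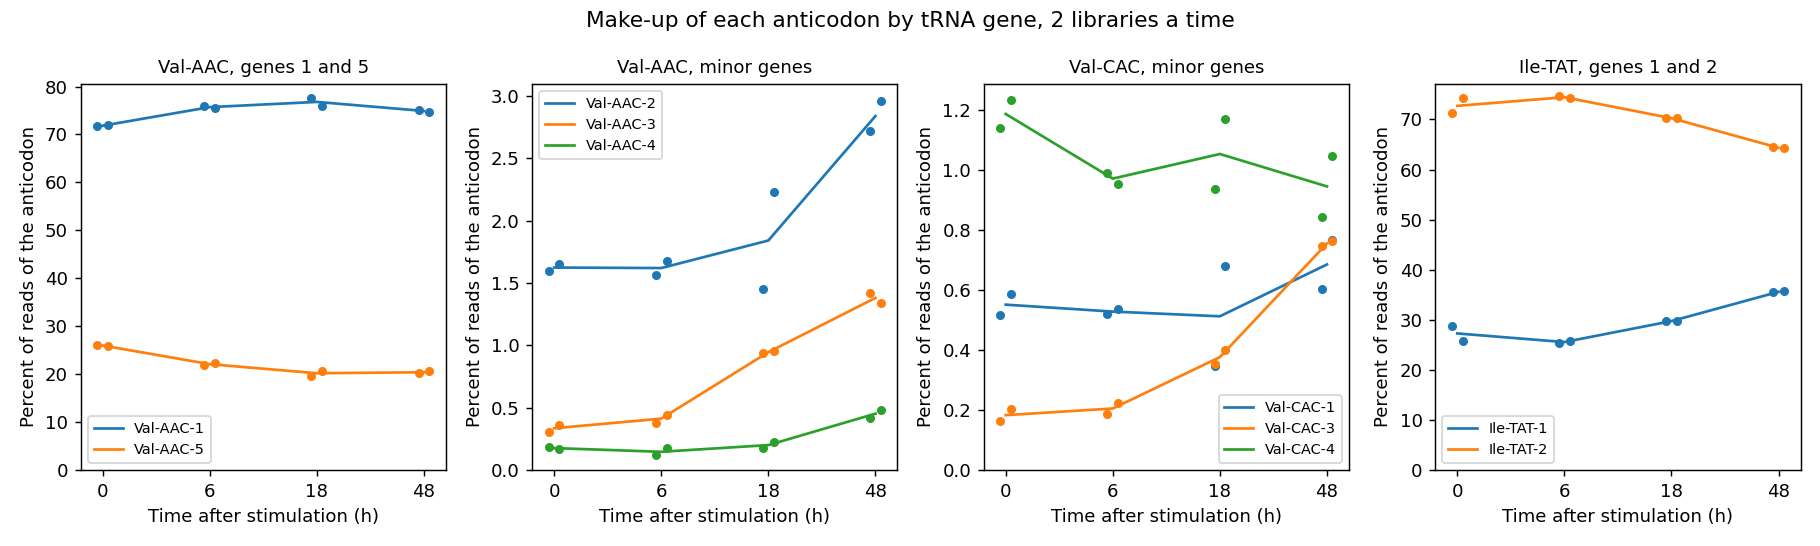
Percent of the reads of its anticodon (y axes, each with its own scale) that each reference contributed in the 8 libraries, against hours of activation (times evenly spaced); points are libraries and lines join the means of 2. Val-AAC-5 falls from 26.0% to 20.4%, Ile-TAT-1 rises from 27.3% to 35.6%, and Val-AAC-3 and Val-CAC-3 rise at 18 and 48 h from shares under 0.4%.

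Between neighbouring times, Val-AAC-3 rose from 6 to 18 h by 1.14 ± 0.227 and Val-CAC-3 by 0.87 ± 0.233 on the library total (SE, adjusted p of 0.00369 and 0.0192, edgeR). The call on Val-CAC-3 was lost without library 1 (0.77, adjusted p = 0.127) or library 2 (0.97, adjusted p = 0.0861) of 6 h. Val-AAC-4, which passed the RPM minimum only through its 48 h libraries, rose from 18 to 48 h by 1.35 ± 0.32. Over the same step Val-CAC-3 rose by 1.10 ± 0.234 and Val-AAC-3 by 0.73 ± 0.225 (SE, adjusted p of 0.021, 0.0153 and 0.0465 for the 3, edgeR). None of these 3 was called without library 1 of 48 h (adjusted p of 0.0564, 0.0564 and 0.119) or library 2 of 48 h (0.123, 0.0924 and 0.148). Val-AAC-3 was not called either without library 1 of 18 h (0.64, adjusted p = 0.102) or without any 1 library of 0 or 6 h (0.73, adjusted p between 0.0575 and 0.107).

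The 5 references under the minimum were not tested. Val-CAC-7 had 0 to 8 reads per library and Val-CAC-5 0 to 69, and Ile-AAT-4 had 274 to 780. A pair of them was singled out after their values were seen. Ile-TAT-3 had 6, 0, 4, 3, 8 and 6 reads in the libraries of 0, 6 and 18 h and 267 and 187 at 48 h. Val-AAC-6 had 84 and 66 reads at 0 h and 6, 8, 0, 4, 0 and 2 later. A library with 0 reads allows up to 3, which is 0.0324 to 0.0446 RPM at these depths and covers counting error only.

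For each amino acid, likeness to other anticodons was measured as the root mean square difference of the 3 log2 fold changes of mean RPM against 0 h, and each of these shares the libraries of 0 h. The course of the valine sum (0.42, 0.45 and 0.51 at 6, 18 and 48 h) was nearest to Ile-TAT (difference 0.0434), Met-CAT (0.0634) and His-GTG (0.0831), out of 46 anticodons. That of the isoleucine sum (0.46, 0.53 and 0.61) was nearest to Leu-CAG (0.0445), Ala-TGC (0.0624) and Ser-TGA (0.0725), out of 47.

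The m1A table asks how much of the m1A58 mark each tRNA kept in cells without Trmt61a at 6 h. In the authors' deposited RNA-seq table of the same time, Trmt61a stood at a mean of 157 scaled read counts in the cKO and 1483 in WT, with a log2 fold change of -3.24 and an adjusted p of 2.22e-08. The methylation table gives 1 level per genotype and 1 coverage for both, so it carries no replicate error, and no test or interval is given. All 44 isoacceptors, and so all 4 for valine and isoleucine, had a lower m1A level in the cKO. The isoleucine tRNAs ended at lower levels than the valine tRNAs.

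Ile-AAT had an m1A level of 85.7% in WT and 13.6% in the cKO, at a coverage of 7746 reads. Its cKO level was the lowest of the 44 isoacceptors, its WT to cKO ratio of 6.28 the highest and its loss of 72.0 percentage points the second largest. Ile-TAT had 68.7% in WT, the lowest WT level of the 44, and 19.6% in the cKO, a loss of 49.1 points. Its coverage of 1596 reads was the second lowest in the table.

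Val-AAC and Val-CAC lay close together. Val-AAC had 79.5% in WT and 37.3% in the cKO, a loss of 42.2 points at a coverage of 4351, and Val-CAC had 81.9% and 40.0%, a loss of 41.9 points at a coverage of 13622. Their WT to cKO ratios were 2.13 and 2.05. Both valine isoacceptors kept more than the cKO median of 34.4%, and both isoleucine isoacceptors kept less.

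The median WT level of the 4 was 80.7%, beside 91.2% for the other 40 isoacceptors, and their median loss was 45.6 points, beside 58.7. As a ratio of WT to cKO the order was the reverse, with a median of 2.82 for the 4, beside 2.63. The cKO medians were 28.4% and 34.4%. With a coverage of at least 5000 only Ile-AAT and Val-CAC remain, and their median loss, the midpoint of unlike values, is 57.0 points. The 37 other isoacceptors at that coverage have a median loss of 59.4 points. Ile-AAT and Ile-TAT, which carry the same amino acid, lay further apart in WT than in the cKO in percentage points. As a ratio of the 2 levels the reverse held, and all are single values without error.

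**Figure D4:**
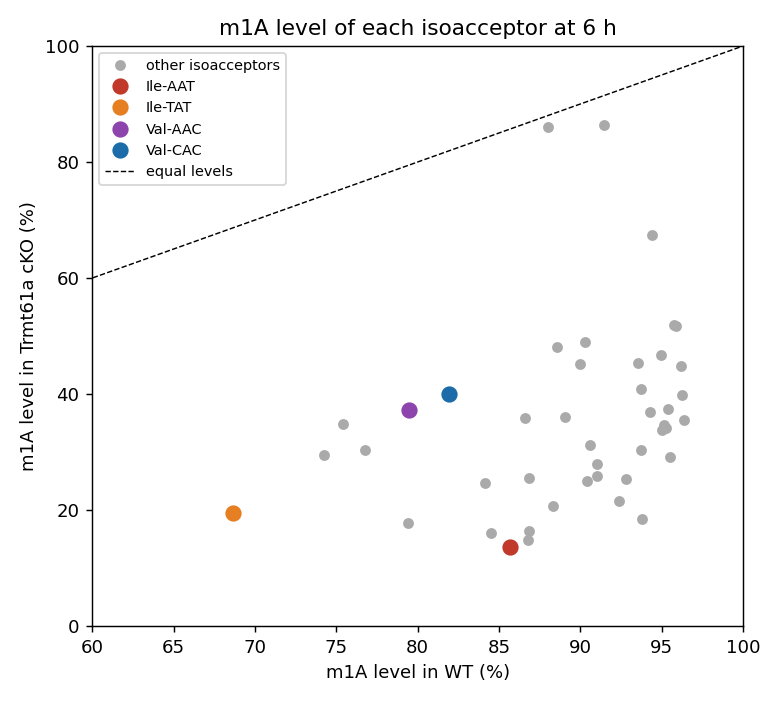
m1A level in percent of 44 tRNA isoacceptors at 6 h, WT on the x axis (60 to 100%) and Trmt61a cKO on the y axis, 1 value per genotype and isoacceptor. The dashed line marks equal levels; all 44 isoacceptors lie below it, Ile-AAT lowest of all in the cKO at 13.6% and Ile-TAT lowest in WT at 68.7%.

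Genes that charge these tRNAs, supply their amino acids, or modify or transcribe tRNAs were followed in the authors' deposited RNA-seq tables of cKO against WT. A gene is listed there only if its unadjusted p was under 0.05. Whether each modification enzyme acts on valine or isoleucine tRNAs was not checked. Of 56 such genes, 1 was listed at 0 h and 4 at each of 3, 6 and 48 h. By the authors' adjusted p, 2 were called at 3 h and 1 at each of 0, 6 and 48 h. At 0, 3, 6 and 48 h, 0.781%, 23.2%, 11.2% and 19.7% of all listed genes were called. Trmt61a was called lower at each time, and the other called gene was Slc3a2, the heavy chain of the branched-chain amino acid transporter.

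In the authors' deposited table of 3 h, Slc3a2 (ENSMUSG00000010095) had a mean of 16623 scaled read counts in the cKO and 8601 in WT, with a log2 fold change of 0.95 and an adjusted p of 7.29e-10. In their table of 6 h its log2 fold change was 0.92, and it was not called (adjusted p = 0.205). Its partner Slc7a5, the light chain that carries the amino acid, was listed only at 48 h, with -0.15 (adjusted p = 0.445) in the authors' deposited table.

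The valyl- and isoleucyl-tRNA synthetases (Vars, Vars2, Iars, Iars2) and the deaminase genes Adat2 and Adat3 were listed at no time. Nsun6, a tRNA cytosine methyltransferase, had log2 fold changes of -0.60 at 3 h and -1.29 at 6 h in the authors' deposited tables (adjusted p of 0.163 and 0.134). Polr3d, an RNA polymerase III subunit, had 0.32 at 3 h and 0.30 at 48 h there (adjusted p of 0.702 and 0.426). Maf1 had 0.90 at 6 h (adjusted p = 0.692) and Sesn2, a leucine sensor upstream of mTORC1, 0.28 at 48 h (adjusted p = 0.23) in the authors' deposited tables. Genes left out of these tables have no value here, so absence from them says only that the unadjusted p was not under 0.05 or that the gene was not tested.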

How the data were processed

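The deposited tRNA-seq tables hold read counts per reference and the RPM made from them by the authors. Their names mention BWA, while the submitters' processing notes name mm10, Bowtie2 2.4.1, featureCounts 1.5.0-p3, HISAT2 2.0.5 and Trim Galore 0.6.6 without tying them to an assay. The deposited m1A table gives levels in percent, 1 coverage as counts, a difference as a score, and a ratio of the genotypes. The caller and any pooling of replicates are not given in the sources used here. For RNA-seq the authors deposited a log2 fold change, p-values and adjusted p-values per time, with group means as a signal (scaled read counts); 16 columns of single libraries were not used.

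Library totals were recovered from reads and RPM. Counts were fitted with edgeR 4.0.16 over all 8 libraries (mean RPM of at least 10, calls at an adjusted p under 0.05) and shares with limma 3.58.1, both with R 4.3.3. The SE given with edgeR was derived as the absolute log2 fold change over the square root of the F statistic of its test. DESeq2 1.42.0, other filters, library sizes, added reads and omitted libraries were alternatives. The scripts were tested on simulated data. Every anticodon and every reference above the minimum is named, with the 3 nearest anticodons per amino acid and each listed gene of the list of 56. The members and lists were chosen with earlier results of these data known. Of the libraries, replicate pairs differed by far more than counting error, so none was counted as a duplicate.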

Additional observations from a re-analysis of the deposited data

How the results depend on the processing

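The number of calls depended mainly on the library size. Of the 5 anticodons called at 6, 18 and 48 h against 0 h, 0, 1 and 1 were called by DESeq2 and with TMM factors on the tRNA reads, and 0, 0 and 1 on the tRNA reads alone; from 18 to 48 h DESeq2 and TMM called 1 (Val-AAC with TMM). Of the references, DESeq2 called 1 at 6 h (lower), 6 at 18 h (2 higher, 4 lower), 7 at 48 h (4 higher, 3 lower) and 6 from 6 to 18 h; TMM called 1, 3, 7, 6 and 6 over the 5 comparisons; and the tRNA reads alone called 0, 3, 7 and, from 18 to 48 h, 5. A minimum of 100 RPM gave 0 references from 6 to 18 h and 1 from 18 to 48 h, and the fit of only the 4 libraries compared gave 1 from 18 to 48 h. For shares, the minimum of 100 RPM gave 2 at 18 h, 5 at 48 h, 3 from 6 to 18 h and 2 from 18 to 48 h; fewer references are tested under it. For these settings, rates over all features are given above only for TMM and the tRNA reads alone against 0 h, and for TMM on references at 48 h alone. The other counts here cannot be set against such a rate and show only how calls moved with the setting. The median m1A loss was 57.0 points with a coverage of at least 5000, beside 59.4 for the other isoacceptors at that coverage.

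Signs turned with the library size, in the order DESeq2, TMM and tRNA reads alone: Val-AAC at 6 h (-0.033, -0.024, -0.0022) and 18 h (-0.15, -0.14, -0.14) and Val-CAC at 18 h (-0.038, -0.025, -0.034). Ile-TAT at 18 h turned under DESeq2 (-0.0052) and the tRNA reads alone (-0.0011). At 48 h, in the same order, Ile-TAT-2 (-0.38, -0.30, -0.15), Val-AAC-5 (-0.50, -0.42, -0.27) and Val-CAC-4 (-0.46, -0.37, -0.23) turned. Under DESeq2 and TMM so did Ile-AAT-2 (-0.22, -0.14), Val-AAC-1 (-0.095, -0.0073) and Val-CAC-2 (-0.14, -0.054), and under DESeq2 Ile-AAT-3 (-0.00044). With 1 library left out Val-CAC-4 ran from -0.0076 (without library 2 of 48 h) to 0.34 (without library 1 of 48 h). The cause was not tested beyond the construction of these settings, which divide by the tRNA reads or a factor near them.

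With 1 library left out, the counts ran from 5 to 5, 4 to 5, 5 to 5, 0 to 1 and 0 to 0 for anticodons (6, 18 and 48 h against 0 h, 18 against 6 h, 48 against 18 h), 5 to 9, 9 to 13, 10 to 12, 1 to 5 and 0 to 7 for references, and 0 to 2, 4 to 6, 6 to 8, 2 to 5 and 0 to 5 for shares. A time left with 1 library is then assumed to vary like the others.

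Same-numbered libraries deviated together by correlations between -0.42 and 0.39. With 2 libraries per time such values cannot settle whether the numbers pair them, and the main fits used no pairing. With the replicate number as a block, the count of shares at 6 h was 1 instead of 2 (Val-AAC-1 at 0.08, adjusted p = 0.0766, limma), and Val-CAC-1 was called at 48 h (0.81, adjusted p = 0.0284, edgeR).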
